A study of Mus musculus with 9 samples.

Results

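Cytosolic ribosomal protein genes were followed on 9 expression arrays of invariant natural killer T (iNKT) cells, T cells with a nearly fixed receptor for lipids presented by CD1d. The members were all genes whose symbol is that of a ribosomal protein of the large (Rpl) or small (Rps) subunit and that have a probe set assigned to no other gene. Kinases of ribosomal protein S6, the gene Rps19bp1 and pseudogenes were left out, and the probe set of highest mean stood for each gene. This gave 49 of 18193 genes, 26 of the large and 23 of the small subunit, with 105 probe sets between them. Another 31 ribosomal protein symbols, among them Rpl3, Rpl5, Rpl10 and Rplp1, lay only on probe sets shared by several genes and are not described.

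The groups were 4 Utx knock out and 5 Utx wildtype arrays of thymic iNKT cells, labelled as biological replicates and taken from sex- and age-matched mice of 8 to 12 weeks. Utx, the product of Kdm6a, is a histone demethylase that acts on the methylated H3K27 mark of silenced genes. The deleted part of Kdm6a, the driver of the deletion, the strain, the sorting gate and the number of animals per array are not given in the sources used, and the p-values measure the spread between these arrays. The titles name 3 batches: batch 1 holds KO1 and WT1, batch 2 holds KO2, KO3, KO4 and WT2, and batch 3 holds WT3, WT4 and WT5. The question was which transcripts differ in iNKT cells without Utx.

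Ribosomal proteins are the protein part of the ribosome. Those of the small subunit hold the mRNA and the decoding site, and those of the large subunit surround the centre that forms peptide bonds. Because every ribosome needs nearly all of them in equal number, their genes are usually expressed together and at a high level, and in dividing cells their mRNAs are among the most abundant. Most carry a tract of pyrimidines at the 5′ end (a 5′ TOP), through which the kinase complex mTORC1 and the protein Larp1 control their translation. A few have paralogs that can take their place in the ribosome in some tissues.

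Some facts of the whole series bear on these genes. The median log2 signal per array was 5.97 to 6.09 on knock out and 6.04 to 6.09 on wildtype arrays, and the interquartile range was 3.80 to 4.29 on knock out and 3.45 to 3.84 on wildtype arrays. The 99th percentile lay at nearly one level, 12.45 to 12.48 on knock out and 12.43 to 12.48 on wildtype arrays. Kdm6a itself read 9.94 ± 0.21 in knock out (SD, n = 4) and 9.97 ± 0.13 in wildtype cells (n = 5), and since it is not known whether its probe set lies in the deleted part, this does not check the labels. The deviations of KO1 and of WT1 from their genotype means correlated at r = -0.92 over 14524 genes, that is, they were nearly mirror images. The fitted batch terms had a median size of 0.04 for batch 2 and 0.02 for batch 3 (log2), against median standard errors of 0.23 and 0.26. No source used here says whether the values had been adjusted for batch before deposit.

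Of the 49 members, 46 were tested. Across them no gene passed the test: 0 were higher and 0 were lower in knock out cells by limma (threshold 0.05 for the adjusted p, batch a fixed factor in the model). Batch 3 holds only wildtype arrays, so the fitted differences come from KO1 to KO4 against WT1 and WT2. WT3 to WT5 add only to the estimate of the spread. Over all 14524 genes tested, 7.88% were called higher and 3.37% lower. A single member, Rpl39l, had an unadjusted p under 0.05, which is 2.17% of the members against 30.8% of all genes. The median difference of the members, knock out minus wildtype, was -0.04 (log2), against 0.11 over all genes. It was -0.03 for the 24 tested genes of the large subunit and -0.05 for the 22 of the small subunit. The difference was positive in 16 of the 46 members (34.8%, against 59.3% of all genes), and this share was not tested. These are bulk samples of sorted cells, so fewer cells of a type and less RNA per cell cannot be told apart.

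On the values as deposited most differences were small. Of the 46 members, 25 (54.3%) differed by less than 0.1 (log2) between genotypes, against 16.4% of all genes. A difference under 0.25 was found in 42 (91.3%, against 38.7% of all genes). These were all 35 members above the 99th percentile of mean signal and 7 of the 11 below it. The 95% interval of the difference lay within 1.5-fold either way for 38 members and within 2-fold for 44. An interval within 1.5-fold was found in 34 of the 35 members above the 99th percentile of mean signal and in 4 of the 11 below it. For comparison, 3048 of the 14524 genes (21.0%), of all signal levels, had an interval within 1.5-fold. The members outside 2-fold were Rpl39l and Rps25, both described below, whose intervals reached -1.90 and -1.31. The sizes depended on the scale of the arrays. When each array was scaled to one median and interquartile range, the median of the members was -0.79, 4 of 46 differed by less than 0.25, and 38 (82.6%) had an unadjusted p under 0.05, against 33.7% of all genes. Of these, 3 were called lower and 0 higher. By construction, such scaling lowers high signals on arrays of wide interquartile range (KO3 4.10, KO4 4.29) and raises them on WT2 (3.45).

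**Figure D1:**
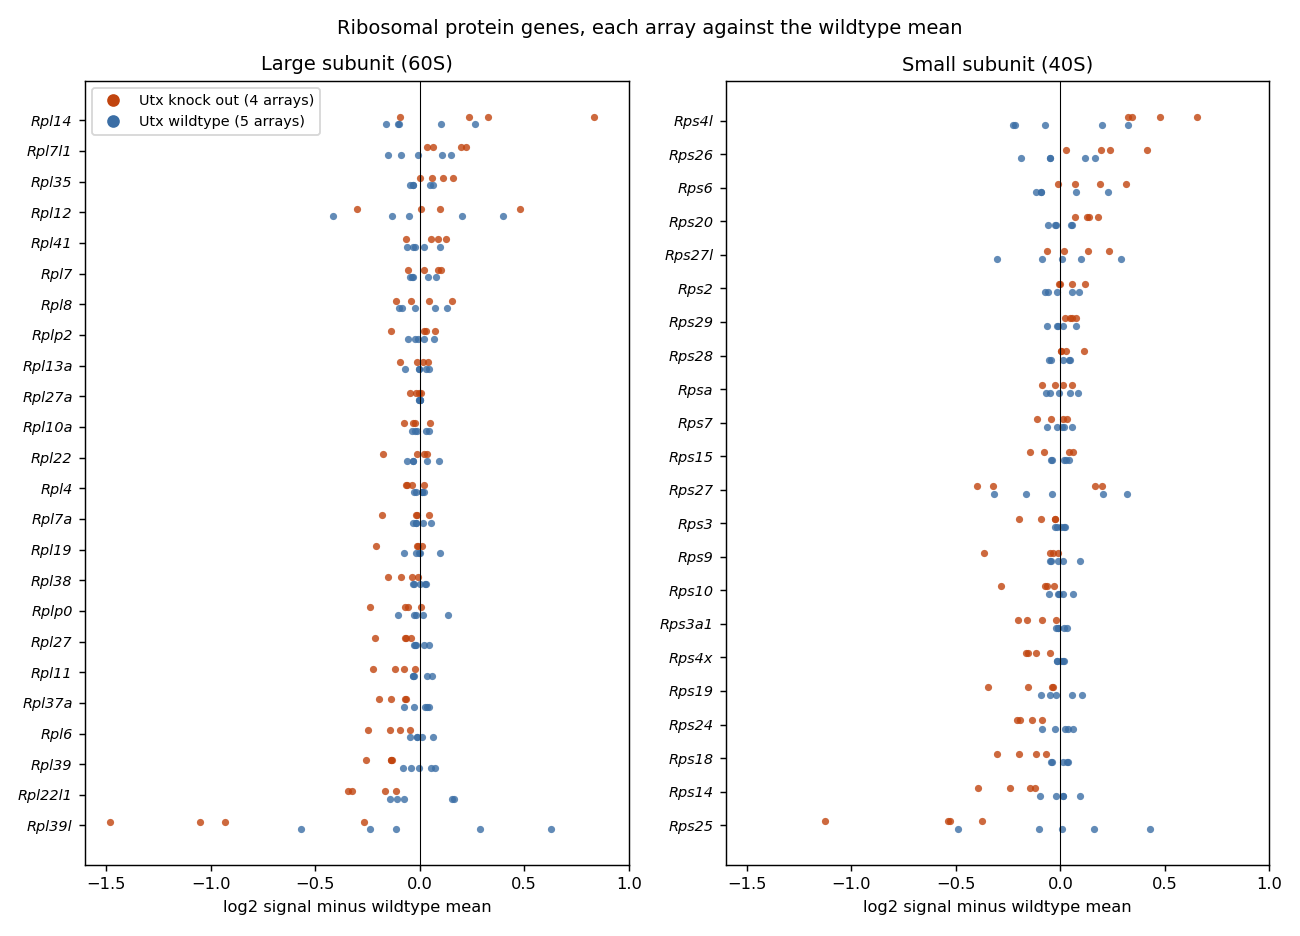
Log2 signal of each tested member on each array minus its mean over the 5 wildtype arrays, with 4 knock out points above 5 wildtype points in each row; genes run from the highest to the lowest fitted difference. Most points lie within 0.25 of 0, and Rpl39l and Rps25 spread farthest to the left.

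Most members lay at the upper end of the signal scale. The mean signal of 35 of them exceeded the 99th percentile taken over the table (12.44, log2), and of the 451 probe sets above it, 63, or 14.0%, belonged to members. The arrays did not share one distribution: the 75th percentile was 8.33 to 8.65 on knock out and 8.11 to 8.33 on wildtype arrays, and the interquartile ranges given above were unequal too. At the 99th percentile, above which most members lie, the arrays ranged only from 12.43 to 12.48. The median residual SD was 0.07 for the 35 members, 0.11 for other genes above that percentile and 0.26 for all genes tested.

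Named members of the large subunit are given first, starting with the stalk. Rplp0, the base of the stalk that recruits elongation factors, read 13.03, 13.09, 12.85 and 13.01 in KO1 to KO4, against 13.10, 13.07, 12.98, 13.22 and 13.06 in WT1 to WT5. Its difference was -0.08 (log2, SE 0.15, adjusted p = 0.761 by limma). Rplp2, a stalk protein bound to it, averaged 13.86 ± 0.09 in knock out and 13.86 ± 0.05 in wildtype cells (SD, n = 4 and 5), a difference of 0.01 (adjusted p = 0.979). In both genes the arrays of the 2 genotypes overlapped.

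Rpl11, which besides its ribosomal role binds the p53 regulator Mdm2 when ribosome assembly fails, read 13.28, 13.37, 13.17 and 13.32 in KO1 to KO4. In WT1 to WT5 it read 13.43, 13.37, 13.36, 13.46 and 13.36, and the difference was -0.11 (95% interval -0.44 to 0.22, adjusted p = 0.640). KO3 was the lowest array and KO2 lay among the wildtype arrays. Rpl38, needed in mice for translation of some Hox mRNAs, differed by -0.07 (-0.39 to 0.25), and Rpl13a, a frequent reference gene, by -0.01 (-0.33 to 0.31). Rpl10a differed by -0.02 and Rpl7 by 0.04 (adjusted p = 0.931 and 0.866).

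Rpl41, the shortest ribosomal protein, averaged 14.03 ± 0.08 in knock out and 13.98 ± 0.06 in wildtype cells (SD, n = 4 and 5), with a difference of 0.06 (adjusted p = 0.821). Rpl35 differed by 0.09 (-0.24 to 0.41). Rpl27a, chosen after its values were seen, varied least of all tested members between wildtype arrays. It read 13.61, 13.63, 13.58 and 13.62 in KO1 to KO4, against 13.62 to 13.63 on the wildtype arrays. Rpl39, X-linked and one of the small proteins at the exit tunnel, read 6.82, 6.94, 6.94 and 6.94 in KO1 to KO4, against 7.15, 6.997, 7.13, 7.03 and 7.07 in WT1 to WT5. Its arrays did not overlap, but the difference of -0.17 did not pass (adjusted p = 0.463).

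Rpl22 and its paralog Rpl22l1 are of particular interest in T cells, because loss of Rpl22 in mice blocks the development of alpha-beta T cells. Rpl22 read 13.21, 13.26, 13.05 and 13.24 in KO1 to KO4, against 13.26, 13.19, 13.16, 13.31 and 13.19 in WT1 to WT5. Its difference was -0.03 (-0.36 to 0.31, adjusted p = 0.922), and its other probe sets gave -0.13 and -0.22 (adjusted p = 0.613 and 0.673 over all probe sets). Rpl22l1 read 12.00, 12.23, 12.02 and 12.18 in KO1 to KO4, against 12.50, 12.20, 12.27, 12.51 and 12.23 in WT1 to WT5. The difference of -0.24 (-0.63 to 0.16) did not pass (adjusted p = 0.383). KO2 lay among the wildtype arrays, and WT2 among those of the knock out.

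In the small subunit, Rpsa, which is related to the laminin receptor, averaged 13.69 ± 0.06 in knock out and 13.70 ± 0.06 in wildtype cells (SD, n = 4 and 5), a difference of -0.00 (adjusted p = 0.998). Rps6, the substrate of the S6 kinases, read 10.84, 10.76, 10.96 and 11.08 in KO1 to KO4, against 10.84, 10.68, 10.65, 11.00 and 10.68 in WT1 to WT5. The genotypes overlapped, and the difference was 0.15 (-0.26 to 0.56, adjusted p = 0.595). Rps19, the gene most often mutated in Diamond-Blackfan anaemia in humans, read 12.70, 12.82, 12.51 and 12.82 in KO1 to KO4, against 12.91, 12.81, 12.76, 12.96 and 12.84 in WT1 to WT5. Its difference was -0.14 (-0.51 to 0.23, adjusted p = 0.587). Rps26, also mutated in that anaemia, differed by 0.23 (-0.19 to 0.64), with -0.14 in batch 1 and 0.47 in batch 2. Rps29 differed by 0.04 and Rps3a1 by -0.12 (adjusted p = 0.856 and 0.606).

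A few members separated the genotypes by small steps. All 4 knock out arrays lay below all 5 wildtype arrays in 8 of 46 members, 17.4%, where 12.7% of all genes did so. These were Rpl6, Rpl27, Rpl39, Rps3, Rps4x, Rps14, Rps18 and Rps24. All knock out arrays lay above in 1 member, Rps20 (2.17%, against 22.2% of all genes). Rpl6, Rpl27, Rps3, Rps14, Rps18, Rps20 and Rps24 are named here because of these values. The counts refer to the probe set used for each gene. In Rps3 another probe set separated the genotypes the other way. It read 10.12 to 10.44 on the knock out and 9.72 to 10.08 on the wildtype arrays. Its difference of 0.34 (log2) was not called. The remaining Rps3 probe set, with a mean of 2.97 below the filter, differed by -0.13.

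Rps14, a core protein of the small subunit whose loss marks the 5q- syndrome in humans, read 12.80, 12.82, 12.55 and 12.70 in KO1 to KO4. In WT1 to WT5 it read 12.93, 12.96, 12.85, 13.04 and 12.96. The difference was -0.21 (-0.56 to 0.14, adjusted p = 0.385), and its other probe set gave -0.30 (adjusted p = 0.239 over all probe sets). Rps18 differed by -0.17 (adjusted p = 0.470), with all 6 of its probe sets between -0.32 and 0.09. Rps24 differed by -0.16 (adjusted p = 0.470) and the X-linked Rps4x by -0.12 (adjusted p = 0.573). Rps20 read 13.52, 13.63, 13.57 and 13.59 in KO1 to KO4, against 13.50, 13.39, 13.50, 13.42 and 13.43 in WT1 to WT5, a difference of 0.13 (adjusted p = 0.555). The wildtype arrays of these genes were close together, with SDs of 0.02 to 0.07. The test uses a spread drawn towards that of all genes (a prior SD of 0.24), which exceeds their own. An ordinary test on their own spread, chosen after seeing the data, also called 0 members, with 3 at an unadjusted p under 0.05, while it called 0.647% of all genes higher and 0.179% lower. With a robust prior that depends on signal, limma called 0 members, with 4 at an unadjusted p under 0.05, and 9.8% of all genes higher and 4.53% lower.

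**Figure D2:**
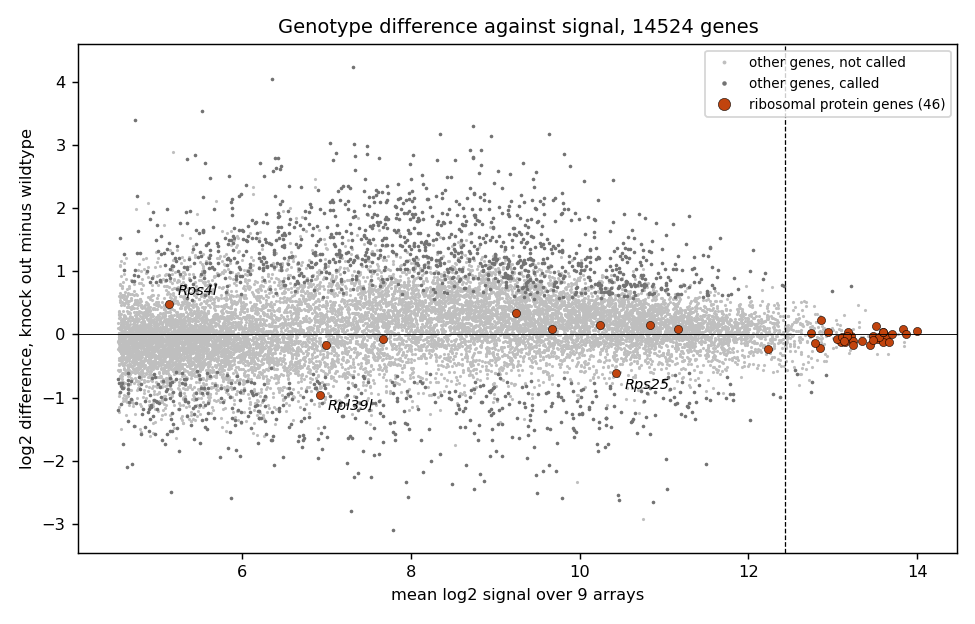
Fitted log2 difference, knock out minus wildtype, against mean log2 signal for the 14524 genes tested; the dashed line marks the 99th percentile of mean signal (12.44). The members right of that line lie between -0.21 and 0.23, and the spread of all genes narrows there too.

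Rpl39l and Rps25 had the most negative differences. Rpl39l, a paralog of Rpl39 best known from testis, read 5.86, 7.07, 6.40 and 6.28 in KO1 to KO4, against 7.96, 6.77, 7.22, 7.10 and 7.63 in WT1 to WT5. KO2 lay above WT2, so the genotypes overlapped. The difference was -0.95 (SE 0.41, 95% interval -1.90 to -0.01, adjusted p = 0.159). It was -2.11 in batch 1 and -0.18 in batch 2.

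Rps25, a small-subunit protein needed for initiation at some viral internal entry sites, is named because of its values. It read 9.59, 10.20, 10.35 and 10.19 in KO1 to KO4, against 11.15, 10.23, 10.88, 10.73 and 10.62 in WT1 to WT5. KO1 was the lowest and WT1 the highest of all arrays, and WT2 lay among the knock out arrays. The difference was -0.62 (SE 0.30, 95% interval -1.31 to 0.08, adjusted p = 0.204). Batch 1 gave -1.56 and batch 2 gave 0.01. Without WT2, only KO1 and WT1 give the difference, 1 array of each genotype, and the spread in the test comes from the arrays of batches 2 and 3 and from other genes, with the lone arrays assumed to vary alike. In that fit both genes were called lower (Rpl39l -2.11, adjusted p = 0.0266; Rps25 -1.56, adjusted p = 0.0143, by limma), where 3.79% of all genes were called higher and 2.88% lower.

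The split between batches was tested itself, though batch 1 holds 1 array of each genotype and batch 2 only 1 wildtype array. The difference in batch 1 minus that in batch 2 had an unadjusted p under 0.05 in 3 members, 6.52%, against 13.3% of all genes. They were Rps25 (-1.57, adjusted p = 0.165 by limma), Rpl39l (-1.92, adjusted p = 0.243) and Rpl12 (-1.31, adjusted p = 0.272), and none passed. Of all 14524 genes only 3 passed, so that the lack of a call here says nothing about the members. Rpl12, at the base of the stalk and named because of this value, read 9.35, 9.74, 9.65 and 10.13 in KO1 to KO4, against 10.05, 9.23, 9.85, 9.51 and 9.59 in WT1 to WT5. Its genotype difference was 0.08 (-0.58 to 0.75), made of -0.70 in batch 1 and 0.61 in batch 2. Over all members the median difference was -0.07 in batch 1 and -0.01 in batch 2, and 30 of 46, or 65.2%, had the same sign in both, against 65.3% of all genes.

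**Figure D3:**
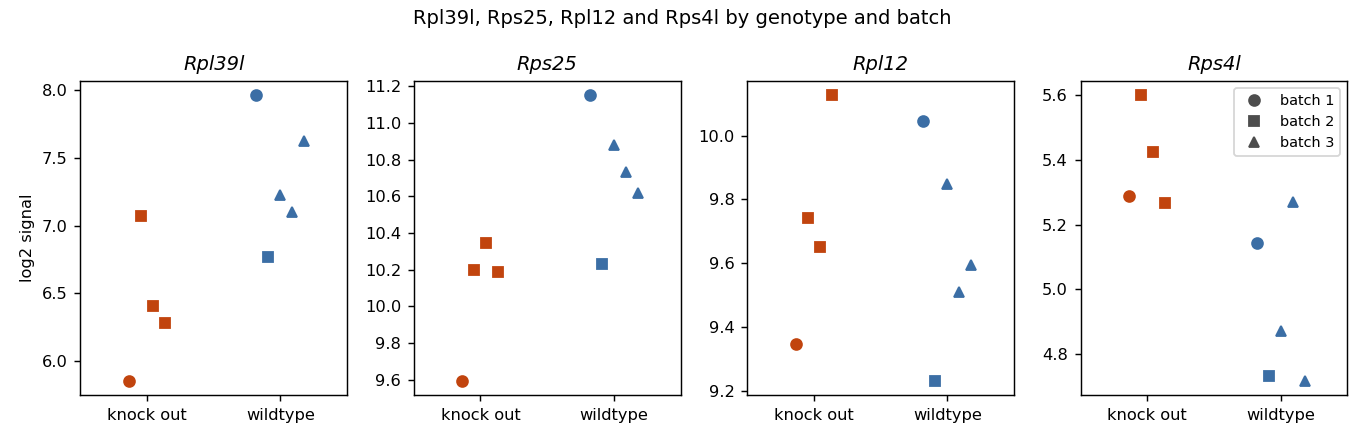
Log2 signal of Rpl39l, Rps25, Rpl12 and Rps4l on each array, knock out left and wildtype right, with symbols for the batch; each panel has its own scale. In the 3 panels from the left, KO1 is the lowest knock out array and WT1 the highest wildtype array, while in batch 2 the knock out arrays lie on both sides of WT2 in Rpl39l and Rps25 and above it in Rpl12.

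The paralogs spread in both directions. Of 6 on the array, 5 were tested and 0 called, with differences from -0.95 for Rpl39l to 0.48 for Rps4l. Rps4l, related to Rps4x, read 5.29, 5.60, 5.42 and 5.27 in KO1 to KO4, against 5.14, 4.73, 4.87, 5.27 and 4.72 in WT1 to WT5. KO4 and WT4 were at nearly one level. The difference was 0.48 (SE 0.22, 95% interval -0.02 to 0.98, adjusted p = 0.175), at a signal not far above the filter on low values of 4.54. Rps27l, a paralog of Rps27 induced by p53 in human cells, differed by 0.09 on the probe set used and by 0.27 and 0.52 on its others (adjusted p = 0.798, 0.402 and 0.306). Rps27 itself differed by -0.07, with -0.64 in batch 1 and 0.31 in batch 2. Rpl7l1, related to Rpl7, differed by 0.15 (-0.22 to 0.52), and its 2 other probe sets by 0.18 and 0.27.

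Rpl14, a gene that is no paralog and was chosen after its values were seen, had the highest difference next to Rps4l. It read 9.43, 9.34, 9.01 and 9.94 in KO1 to KO4, against 9.21, 9.002, 9.01, 9.37 and 8.94 in WT1 to WT5. KO4 stood above all other arrays, and KO2 and KO3 among those of the wildtype. The difference was 0.35 (-0.26 to 0.96, adjusted p = 0.403).

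**Figure D4:**
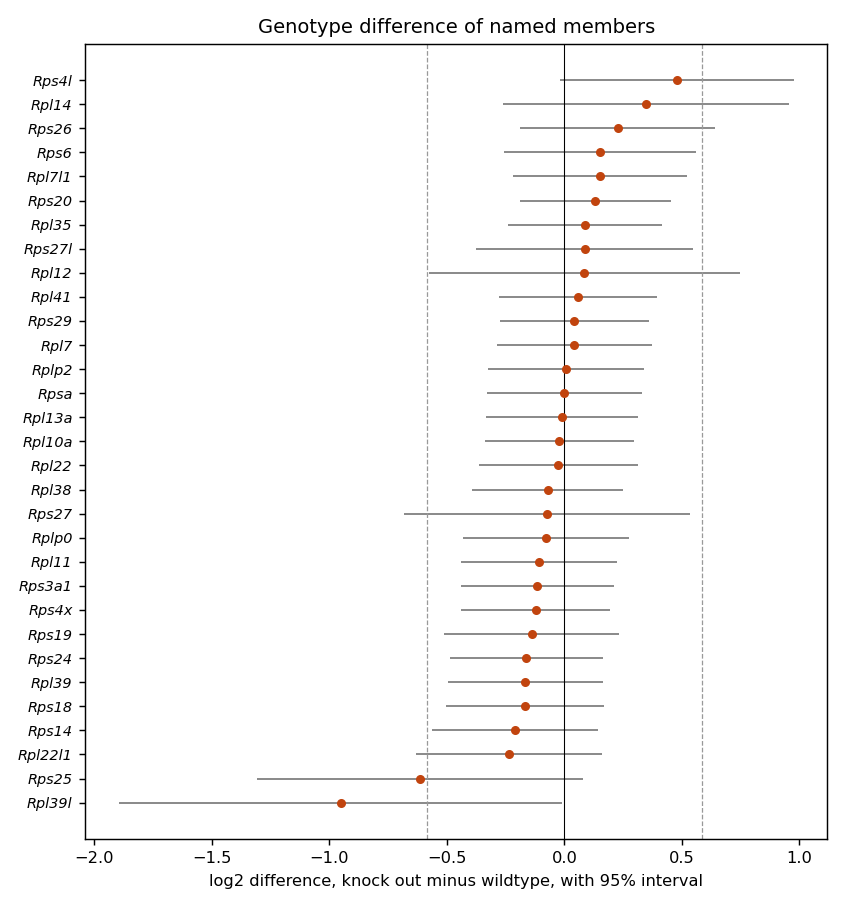
Fitted log2 difference, knock out minus wildtype, of the named members with 95% intervals (limma, batch as a factor). The difference comes from the 4 knock out arrays against WT1 and WT2, and WT3 to WT5 add only to the spread. Dashed lines mark 1.5-fold either way. Every interval but that of Rpl39l includes 0, and that gene did not pass after adjustment.

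Members not tested were Rpl37, Rps16 and Rpl3l, whose signal was below the filter. Rpl3l, a paralog of Rpl3 known from muscle, read 3.45 to 3.95 on the knock out and 3.66 to 3.93 on the wildtype arrays. Rpl37 averaged 4.28 ± 0.07 in knock out and 4.396 ± 0.09 in wildtype cells, and Rps16 averaged 2.73 ± 0.21 and 2.80 ± 0.23 in knock out and wildtype cells (SD, n = 4 and 5). Both encode constituents of the ribosome, and whether these probe sets measure the transcripts was not tested. The 56 other probe sets of the members, fitted over all probe sets, gave 0 calls and 0 at an unadjusted p under 0.05, with differences from -0.32 to 0.52.

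Single arrays moved the members together by small amounts. The median deviation of the tested members from their wildtype mean was -0.05, 0.01, -0.14 and 0.00 in KO1 to KO4, against 0.03, -0.03, -0.04, 0.06 and -0.02 in WT1 to WT5. KO3 was the lowest of all 9 arrays in 27 of 46 members, and WT4 the highest in 16. Without KO3 the median difference of the members was -0.01 in place of -0.04.

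The start sites of the genes are shown because the TOP tract is the feature by which these mRNAs are controlled together. In RefSeq's promoter table (build GRCm38.p6), which reaches from 250 bases before to 50 bases after each annotated start, 43 of the 49 members had an entry, 7 of them with more than 1 start. An unbroken run of at least 7 C or T bases over the start base was found in 12 of the 43 (27.9%), against 6.22% of all 27025 genes in the table. The windows below hold 25 bases before the start and 15 from it on, and capitals mark the run. Those of the last 3 genes hold no run over the start base, though each holds one elsewhere in the window. They lie at chr7:141447626-141447665 (plus strand) for Rplp2, chr4:86857353-86857392 (minus) for Rps6, chr2:39005117-39005156 (minus) for Rpl35 and chr17:27635230-27635269 (minus) for Rps10. The others lie at chr11:114668555-114668594 (plus) for Rpl38, chr3:28805483-28805522 (plus) for Rpl22l1, chr16:10170203-10170242 (plus) for Rpl39l and chr9:44407689-44407728 (plus) for Rps25.
Rplp2: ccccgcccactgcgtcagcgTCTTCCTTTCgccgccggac
Rps6: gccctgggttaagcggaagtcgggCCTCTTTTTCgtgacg
Rpl35: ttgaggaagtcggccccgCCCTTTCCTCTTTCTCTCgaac
Rps10: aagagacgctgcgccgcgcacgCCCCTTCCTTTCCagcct
Rpl38: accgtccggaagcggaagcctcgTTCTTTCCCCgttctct
Rpl22l1: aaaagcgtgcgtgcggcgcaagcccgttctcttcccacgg
Rpl39l: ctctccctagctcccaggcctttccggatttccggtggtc
Rps25: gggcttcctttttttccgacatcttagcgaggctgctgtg

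An annotated start can lie a few bases from the one used in a cell, so the share with a run over the start base depends on the annotation. In Rpl22l1 a pyrimidine run begins just after the annotated start. In Rpl39l one ends just before the start, and in Rps25 one ends farther before it, parted from it by the bases gacatctt. These genes are counted here as members with no run. Members with the run, of which 12 were tested, had a median difference of -0.06 (log2, from -0.17 to 0.35), and the 28 tested members with an entry and no run had one of -0.04 (from -0.95 to 0.23). The motif CGGAAG, the core bound by ETS factors, was present on either strand in 30 of the 43 (69.8%), against 18.8% of all genes. CTTTCC was present on either strand in 22 (51.2%, against 29.3%) and TATAAA in 6 (14.0%, against 15.7%). None of these motifs lies within another on either strand, although neighbours can share bases at their ends and CTTTCC can lie inside a pyrimidine run. A match is a description of the window only.

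Genes that make or use ribosomes were read beside the members, against the 7.88% of all genes called higher, 3.37% called lower and 30.8% with an unadjusted p under 0.05. Of 69 tested genes of ribosome biogenesis, which process ribosomal RNA and assemble the subunits, 1 (1.45%) rose and 0 fell, with a median difference of 0.09. The gene that rose was Lyar, a nucleolar protein, by 1.01 (SE 0.18, adjusted p = 0.0130). Among those not called, chosen for their roles after values were seen, were the nucleolar proteins Ncl (0.17), Npm1 (-0.06) and Fbl (0.08). Of 34 translation initiation and elongation factors, 0 were called, 3 had an unadjusted p under 0.05, and the median was 0.03. The elongation factors Eef1a1 and Eef2, also chosen after values were seen, differed by -0.11 and -0.05 (adjusted p = 0.619 and 0.851). Of 16 other genes with TOP mRNAs, some of them also among the factors, 0 were called, 0 had an unadjusted p under 0.05, and the median was -0.11. The difference was positive in 2 of them (12.5%, against 59.3% of all genes), which was not tested.

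Among 15 regulators of this program, of mTORC1, Myc and Larp1, 1 rose and 0 fell, with a median of 0.14. That is 6.67% of the list, near the 7.88% of all genes called higher. Mtor, the kinase of the complex, rose by 1.18 (SE 0.28, adjusted p = 0.0336). The batches gave 0.65 (batch 1) and 1.54 (batch 2). Larp1 differed by 0.02 (-0.31 to 0.34) and Myc by -0.14 (-0.84 to 0.56), and neither passed (adjusted p = 0.945 and 0.782).

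On the values as deposited, the ribosomal protein genes stayed near 0 on arrays where other genes moved far. With each array scaled to one median and interquartile range, their median was -0.79. Most members also lie above the 99th percentile of signal, which hardly differed between arrays, while the G2 and M phase genes averaged 7.55 to 11.54 (log2). The list for G2 and M phase held 23 tested genes, of which 22 were called higher and 0 lower, with a median difference of 1.81. Their median deviation from wildtype was 1.38 to 2.08 on the knock out arrays and -0.29 to 0.25 on the wildtype arrays. Markers of double-positive thymocytes rose in 10 of 13 (median 1.34), of macrophages and dendritic cells in 4 of 15 (0.95) and of B cells in 3 of 10 (1.13), with 0 falling in each list. In all 3 lists the median deviation on every knock out array (0.54 to 1.71) was above that on every wildtype array (-0.28 to 0.23). Of 15 markers of T and iNKT cells, 0 rose and 4 fell (median -0.14), Cd44, Il2rb, Tbx21 and Ifng. Cd3e, a chain of the T cell receptor complex chosen after its values were seen, read 12.85 ± 0.14 in knock out and 12.87 ± 0.05 in wildtype cells. Cd3g, another chain chosen in the same way, read 12.53 ± 0.24 in knock out and 12.91 ± 0.08 in wildtype cells. Its difference of -0.37 was not called (adjusted p = 0.222 by limma). The part of other cell types or of cycling cells in the level of ribosomal protein transcripts was not tested.

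**Figure D5:**
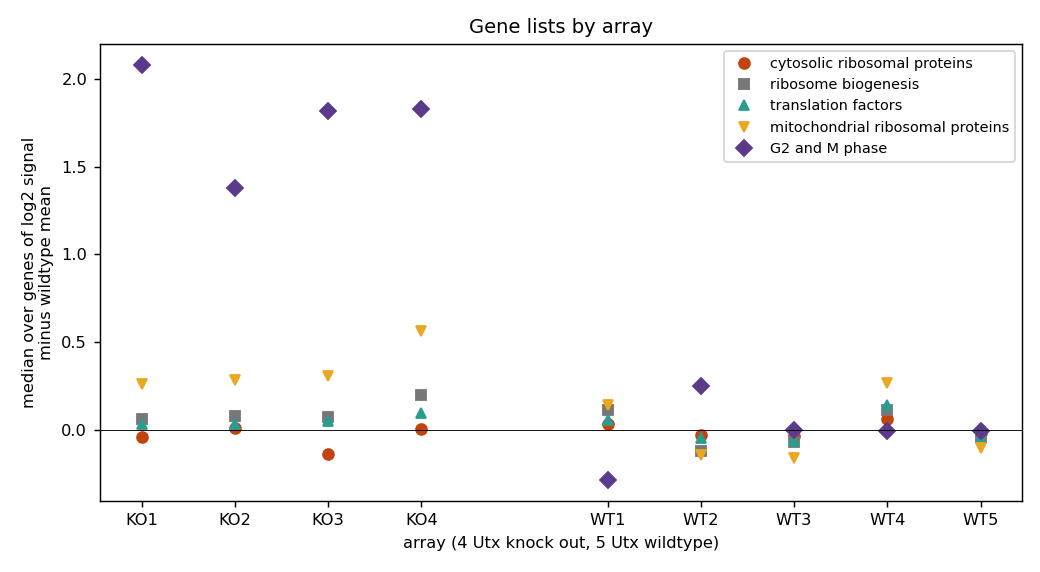
Median over the genes of a list of the log2 signal minus the wildtype mean, for 5 lists on the 4 knock out arrays (left) and 5 wildtype arrays (right). Cytosolic ribosomal proteins lie between -0.14 and 0.06 on all arrays, and G2 and M phase genes between 1.38 and 2.08 on the knock out arrays.

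The absence of calls depended on how batches entered the fit and on the scaling. With no batch term 1 member was called higher and 2 lower (27.8% and 15.9% of all genes), and with batch as a random block 4 higher and 15 lower (42.5% and 26.7%). After scaling each array to one interquartile range 3 members were lower and 0 higher (7.7% and 7.17% of all genes), with a median of -0.79. With the replicate number as a block 0 were called (19.4% of all genes higher, 10.1% lower), and among genes above the 95th percentile of signal 0 of 37 members (12.4% higher, 8.43% lower of all 1448).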

How the data were processed

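Each deposited value is the log2 expression of 1 probe set on 1 array. The authors summarised the arrays by RMA, per the submitters' processing notes (no version given). Per the labels' protocols, RNA was amplified with a kit for small amounts and labelled with biotin. Arrays give no read depth, so precision rests on the 4 and 5 arrays, of which only those of batches 1 and 2 give the fitted difference. The annotation named 1 gene for 34945 of 45101 probe sets, several for 932 and none for 9160, and 64 were controls. By Entrez identifier, 34741 of the first kind, all members included, were found in the reference gene table. A gene was tested when the mean of its highest probe set exceeded the filter, the table's 25th percentile (4.54, log2).

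Genotype was tested two-sided with limma (version 3.58.1, R 4.3.3; lmFit and eBayes) on all 9 arrays with batch as a fixed factor and Benjamini-Hochberg adjustment over 14524 genes (5 residual and 3.50 prior degrees of freedom). Adjusted p-values are from this fit unless another is named, and differences are knock out minus wildtype. The fit was tested on simulated data with independent deviations of the arrays and batch shifts larger than the batch terms fitted here. The simulation held no mirror-image deviations like those of KO1 and WT1, so it does not check the fit for them. Named members are those called (at most 10 in each direction), the 5 of highest and the 5 of lowest mean, all paralogs and listed genes of known roles; of other lists, called genes of smallest p. Others are said to be chosen after their values were seen. The members and lists were chosen with earlier results of these data known. No pair of arrays of a group was a duplicate (smallest SD of a difference 0.30, log2). Alternatives covered batch, replicate number, filter, scaling, probe set, moderation, weights, threshold and single arrays.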

Additional observations from a re-analysis of the deposited data

Results flagged for a closer look

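In each genotype, every tested member was checked for 1 array far from the others, by the gap to the nearest array over the whole range. Of 92 groups of arrays, 4 had such a value, where chance alone flags about 1 in 20. KO3 was far below the other knock out arrays in Rpl19 (13.42, others 13.62 to 13.64), Rps10 (13.00, others 13.21 to 13.25) and Rps9 (12.82, others 13.13 to 13.17). KO1 was far below the others in Rpl39 (6.82, others 6.94 to 6.94). All values are log2 signals.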

How the results depend on the processing

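Of 27 alternatives, 23 called 0 members in either direction. The exceptions were no batch term (1 higher, 2 lower), batch as a random block (4 higher, 15 lower; correlation within batches -0.32), scaling to one median and interquartile range (0 higher, 3 lower: Rpl22l1, Rps18 and Rps25) and leaving out WT2. Leaving out 1 array gave 0 higher and 0 to 2 lower members, and medians from -0.07 to -0.01. The alternatives were not all distinct, since leaving out KO1, WT1 or both gave one and the same result. The 23 also include batch 2 alone, described below. The interquartile scaling gave a median of -0.79 for the members and -0.06 for all genes, where the values as deposited gave -0.04 and 0.11. By construction this scaling lowers high signals on arrays of wide interquartile range, such as KO3 and KO4 (4.10 and 4.29). It raises them on arrays of narrow range, such as WT2 (3.45). How much of the -0.79 comes from these ranges was not tested. The median moved by less than the spread between arrays (0.06) in all other alternatives.

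The replicate number as a block called 0 higher and 0 lower members, with a median of -0.04. Deviations of same-numbered arrays correlated at -0.92, 0.09, 0.02 and 0.15. Numbers 3 and 4 lie in different batches in the knock out and the wildtype, and a batch adjustment before deposit is not known. These correlations can therefore not decide whether the numbers pair the arrays. Of 823 values of single named members under the alternatives, including those that repeat one another, 800 stayed uncalled, 23 passed the threshold in the same direction and 0 reversed past it. A filter at the 95th percentile, an ordinary test without moderation and batch 2 alone were added after seeing the data and called 0 members each; batch 2 alone called 0 of all genes as well, so that its 0 says nothing about the members. In the first, 37 members and 1448 genes were tested and 12.4% and 8.43% of all genes were called higher and lower.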

Other observations

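Ribosomal proteins of mitochondria, a separate set that translates mitochondrial mRNAs, were read as a contrast. Of 73 tested, 2 rose (2.74%, against 7.88% of all genes) and 0 fell (against 3.37%), and 22 had an unadjusted p under 0.05 (30.1%, against 30.8%). The median difference was 0.34 (log2), against 0.11 over all genes, and 64 differences were positive (87.7%, against 59.3%). Mrps31 rose by 0.62 (SE 0.15, adjusted p = 0.0361 by limma) and Mrpl58, a peptidyl-tRNA hydrolase of the mitochondrial ribosome, by 0.79 (SE 0.19, adjusted p = 0.0358). The median of the list was 0.14 in batch 1 and 0.46 in batch 2. Its median deviation from wildtype was 0.26, 0.28, 0.31 and 0.56 in KO1 to KO4, against 0.14, -0.14, -0.16, 0.27 and -0.10 in WT1 to WT5, so that KO1 lay just below WT4. Whether this list differs from the cytosolic ribosomal proteins was not tested.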
